A study of Mus musculus with 6 samples.

Results

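The transcription factors that drive Schwann cells into myelination, and their cofactors and inhibitors, were followed in mouse sciatic nerve at postnatal day 14. The 10 genes were taken by symbol, as promyelin and myelin regulators with cofactors, from a table of 24015 gene rows: Egr2, Pou3f1, Pou3f2, Nab1, Nab2, Nfatc3, Nfatc4, Yy1, Id2 and Id4. RNA-Seq was done on 3 control libraries from mice homozygous for a floxed Rnf40 allele (fl/fl), without Cre, and on 3 libraries from mice that carried the Dhh::Cre transgene in addition (Rnf40ΔSC). Cre under control of Dhh deletes Rnf40, an E3 ligase subunit for monoubiquitination of histone H2B, in cells of the Schwann cell lineage. The other cells of the nerve keep the gene. Both groups were of the same age and carried the same floxed alleles, and the methods describe each library as a pool of 3 nerves. The labels name a mixed 129SvJ/C57Bl/6J background, whereas the methods name C3H in place of 129SvJ.

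Schwann cells that have sorted an axon pass through a promyelinating stage, in which the POU factors Pou3f1 (Oct6) and Pou3f2 (Brn2) are transiently high and act with Sox10 on an enhancer of Egr2. Egr2 (Krox20), a zinc finger protein, then activates genes of myelin proteins and lipid synthesis and represses genes of the immature state, partly through its cofactors Nab1 and Nab2. Nfatc3 and Nfatc4 respond to calcineurin and act with Sox10, Yy1 activates Egr2 downstream of neuregulin, and Id2 and Id4 are inhibitors of basic helix-loop-helix proteins.

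Totals of reads assigned to genes were 1317167, 1992622 and 2468765 in fl/fl replicates 1, 2 and 3 and 2184268, 1459387 and 2186710 in Rnf40ΔSC replicates 1, 2 and 3. Below, normalized counts are raw counts put on the same library size with TMM, a scaling that allows for a few genes taking a changed share of the reads. Averaged over the 6 libraries they give a gene's base mean. The deleted gene Rnf40 had 126.6, 122.9 and 138.0 normalized counts in fl/fl replicates 1, 2 and 3 and 87.7, 87.9 and 91.5 in the Rnf40ΔSC replicates. Every Rnf40ΔSC library thus lay below every fl/fl library, in the direction of the labels, with remaining reads in all of them. The authors describe loxP sites around some exons of Rnf40, whereas the counts are of the whole gene. The remaining reads are therefore no measure of how far the gene was deleted. The log2 fold change of Rnf40 was -0.54 (SE 0.14, adjusted p = 0.00242 by the quasi-likelihood test of edgeR with Benjamini-Hochberg adjustment over all genes tested), and with total-count scaling it was -0.27 and did not pass (adjusted p 0.12).

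Rnf40ΔSC replicate 3 stood apart from the other libraries of its genotype by muscle RNA. Over 10 markers of skeletal muscle, the normalized counts summed to 8240, 6137 and 4627 in fl/fl replicates 1, 2 and 3 and to 176, 442 and 5734 in Rnf40ΔSC replicates 1, 2 and 3. Myh4, a myosin heavy chain, was the most abundant of them with 27.4% of the sum, and 0 of the 10 were at 0 in all libraries. By edgeR's quasi-likelihood test and by DESeq2 0 of these 10 passed, and 0 had an unadjusted p under 0.05 by edgeR. Rnf40ΔSC replicate 3 thus lay within the range of the fl/fl libraries, and Rnf40ΔSC replicates 1 and 2 far below it. Results for each regulator are given with and without Rnf40ΔSC replicate 3. Without it, muscle RNA separates the genotypes completely, so that muscle RNA and genotype cannot be told apart in those fits, and they are no check on muscle RNA. Its part in the results was not tested.

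Schwann cell markers were present in all libraries. All 7 tested passed the test as lower in Rnf40ΔSC nerves, beside 16.2% of all genes tested. In whole-nerve RNA, fewer cells of a type and less RNA per cell cannot be told apart. Markers of fibroblasts passed as lower for 5 of 6, of endothelium for 4 of 6 and of macrophages for 5 of 6 tested. Those of pericytes and smooth muscle did so for 3 of 6, of perineurium for 2 of 4 tested and of adipocytes for 2 of 6. None was higher in these lists. The counts are under TMM. Scaling by total counts moved the median log2 fold change of all genes up by 0.27, and the fibroblast markers Dcn and Pdgfra had -0.26 and -0.27 under TMM. By immunostaining, the authors counted a larger share of macrophages in Rnf40ΔSC nerves at this age. By DESeq2, 4 fibroblast, 4 endothelial, 4 macrophage, 3 pericyte and smooth muscle, 1 perineurial and 2 adipocyte markers passed as lower, beside 11.3% of all genes. The 6 fibroblast markers, led by Col1a2 with 46.9%, summed to 54198, 52798 and 57597 in fl/fl and to 40459, 38034 and 39396 in Rnf40ΔSC libraries. The 7 macrophage markers, led by Csf1r with 26.8%, summed to 694.5, 625.9 and 694.4 and to 453.1, 451.0 and 473.1. The endothelial sums, with Cdh5 as the leading gene at 42.5%, were 1250.1, 1137 and 1298 in fl/fl and 804.0, 825.9 and 977.3 in Rnf40ΔSC libraries. Of 4 neuronal markers tested, 1 was higher and 1 lower by edgeR, against 1 higher and 0 lower by DESeq2. Of the T cell markers Cd8a was at 0 in all libraries while the others had sums of at most 3.10. The part of these other cells in the results below was not tested.

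All 10 regulators passed the filter on low counts and were tested among 11371 genes. A gene passed the test at an adjusted p of at most 0.05, and it was called where the absolute log2 fold change was also at least 0.8 and the base mean at least 20. Of the 10, 4 passed as higher in Rnf40ΔSC nerves (Egr2, Pou3f1, Pou3f2 and Id2), beside 15.4% of all genes tested, and 2 passed as lower (Nab1 and Nfatc4), beside 16.2%. Called as higher were 3 of the 10 (Pou3f1, Pou3f2 and Id2), beside 3.65% of all genes, and 0 were called as lower, beside 4.99%. Id2 lay near the fold-change limit, and its call was lost in 6 of the alternative runs, given with its values below. Without fl/fl replicate 2, 1 regulator was called as lower (Nfatc4, -0.83). At an unadjusted p under 0.05 by edgeR the same numbers, 4 higher and 2 lower, were found, beside 20.3% and 20.7% of all genes. By DESeq2, 4 of the 10 passed as higher, beside 10.3%, 1 passed as lower, beside 11.3%, and 0 were called as lower, beside 4.51%. The libraries of the genotypes did not overlap for 7 of the 10, beside 43.5% of all genes tested. The log2 fold changes had a median of 0.16 over the 10 and of -0.0026 over all genes tested. Scaling by total counts in place of TMM moved the median of all genes up by 0.27, and under it 5 of the 10 passed as higher, beside 33.1% of all genes, and 0 as lower, beside 7.74%. It also moved the share of lower genes among all those called from 57.7% to 20.6%. The counts of 4 higher and 2 lower also held without Rnf40ΔSC replicate 3, beside 16.7% and 17.3%.

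**Figure D1:**
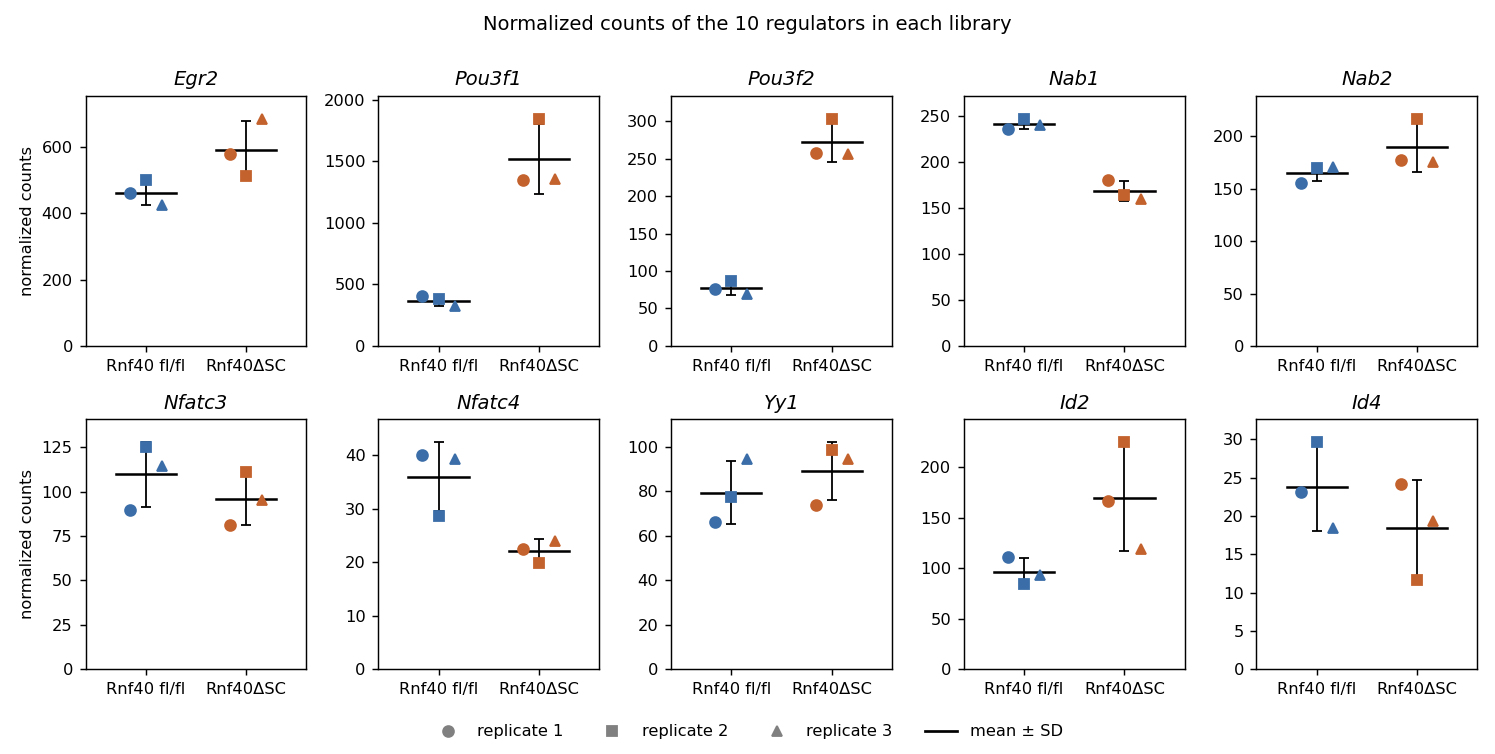
Normalized counts (vertical axes, each from 0) of the 10 regulators in the 3 fl/fl and 3 Rnf40ΔSC libraries. Points are libraries, with symbols for replicate numbers, and black lines are mean ± SD; Pou3f1 and Pou3f2 show wide gaps between the genotypes, whereas Nfatc3, Yy1 and Id4 overlap.

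The POU factors showed the widest separation. Pou3f1, the marker and driver of the promyelinating stage, had 402.8, 382.3 and 320.4 normalized counts in fl/fl replicates 1, 2 and 3 and 1353, 1846 and 1355 in Rnf40ΔSC replicates 1, 2 and 3. All Rnf40ΔSC libraries were high, replicate 2 the most, and none came near the fl/fl range. The means of 369 ± 42.9 and 1518 ± 284 (SD, n = 3 libraries each) gave a ratio of 4.12. The log2 fold change was 2.05 (SE 0.12, adjusted p = 9.27e-12 by edgeR's quasi-likelihood test). Without Rnf40ΔSC replicate 3 it was 2.14. The gene lies on chromosome 4 (chr4:124334896-124337899, plus strand, mm9), where the GENCODE annotation places a second model of the same symbol, a pseudogene sharing 3003 exon bases with it. Whether reads were lost between these models is not given in the sources used here.

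Pou3f2, a close relative that overlaps with Pou3f1 in function, had 75.6, 86.8 and 69.4 normalized counts in fl/fl replicates and 258.3, 303.4 and 256.7 in Rnf40ΔSC replicates 1, 2 and 3. Again replicate 2 was the highest Rnf40ΔSC library and the genotypes were far apart. Its log2 fold change was 1.82 (SE 0.13, adjusted p = 2.53e-14 by the same edgeR test), and 1.87 without Rnf40ΔSC replicate 3. Both POU genes kept their direction and passed in every alternative run. Within single libraries, the ratio of Pou3f1 to Pou3f2 counts was 5.28, 4.38 and 4.59 in fl/fl and 5.23, 6.08 and 5.27 in Rnf40ΔSC libraries, ranges that overlap.

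Of 12 other POU genes in the table, 2 had enough reads to be tested, and both passed as higher under TMM, RLE and total-count scaling. Of all genes tested, 15.4% did so under TMM and 33.1% under total-count scaling. Pou6f1, expressed in many tissues, had 80.3, 75.2 and 69.4 normalized counts in fl/fl and 140.8, 138.2 and 137.3 in Rnf40ΔSC libraries, a log2 fold change of 0.90 (SE 0.14, edgeR adjusted p = 4.22e-06). Pou2f1, the ubiquitous Oct1, had 32.4, 25.4 and 28.4 against 41.8, 48.0 and 45.8, and passed with a log2 fold change of 0.66 (SE 0.23, edgeR adjusted p = 0.0214). The groups of Pou2f1 did not overlap, but it no longer passed with DESeq2 or without fl/fl replicate 2, fl/fl replicate 3 or Rnf40ΔSC replicate 2, with adjusted p of 0.0912, 0.0715 and 0.0567 in these leave-outs and 0.00109 to 0.0991 over all alternatives.

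Egr2, the factor on which the myelin program depends, had 459.9, 501.0 and 425.0 normalized counts in fl/fl replicates 1, 2 and 3 and 577.8, 511.9 and 684.9 in Rnf40ΔSC replicates 1, 2 and 3. Each Rnf40ΔSC library lay above each fl/fl library, although Rnf40ΔSC replicate 2 and fl/fl replicate 2 lay close together. The log2 fold change was 0.36 (SE 0.10, 95% interval 0.15 to 0.57), with an adjusted p of 0.00579 by edgeR's quasi-likelihood test. Without Rnf40ΔSC replicate 3, the highest library, it was 0.25 (adjusted p 0.0302), and without fl/fl replicate 3 it was 0.30 and did not pass (adjusted p 0.0873), in a range over all alternatives from 7.93e-06 to 0.0873. With total-count scaling it was 0.63. Egr2 lies on chromosome 10 (chr10:66998223-67004936, plus strand, mm9) and shares no exon bases with another annotated gene there.

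A promoter window of Egr2 is shown because it carries an octamer, the DNA motif of POU factors, and the POU genes gave the widest change. RefSeq windows of 300 bases, 250 before and 50 after a start, were found for 9 of the 10 genes (14 windows, GRCm38.p6), and none for Pou3f1. They were searched on both strands for the octamer ATGCAAAT, the EGR motif GCGNGGGCG and the YY1 motif CCATNTT, of which no matches overlapped in the windows printed. Of 32851 windows of all genes, 1.74% held the octamer, 5.55% the EGR motif and 16.1% the YY1 motif. Of the 5 windows of Egr2, 3 that overlap each other held the same octamer. The window printed is the first of these 3 (chr10:67537619-67537918, plus strand, GRCm38.p6), with the octamer in capitals.
Egr2: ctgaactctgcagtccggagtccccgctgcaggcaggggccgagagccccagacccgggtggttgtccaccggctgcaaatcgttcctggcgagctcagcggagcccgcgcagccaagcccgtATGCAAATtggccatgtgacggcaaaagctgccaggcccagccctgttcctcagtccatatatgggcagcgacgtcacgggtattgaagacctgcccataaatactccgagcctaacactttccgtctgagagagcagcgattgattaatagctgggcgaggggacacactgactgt
A match describes letters in a window and shows no binding. Only promoter windows were searched, not the enhancer of Egr2 on which the POU factors act, and a link between the octamer and the changes was not tested.

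Of the 3 other EGR genes, 2 had enough reads to be tested. Egr1, an immediate early gene, had 58.6, 50.8 and 51.9 normalized counts in fl/fl and 90.9, 78.5 and 85.3 in Rnf40ΔSC libraries, without overlap. The log2 fold change of Egr1 was 0.68 (SE 0.17, edgeR adjusted p = 0.00211). Egr3, which acts in muscle spindle and immune cell development, passed with 0.46 (SE 0.17, edgeR adjusted p = 0.0382). Egr3 no longer passed with DESeq2. It also did not pass without fl/fl replicate 2 (edgeR adjusted p 0.0741), fl/fl replicate 3 (0.203), Rnf40ΔSC replicate 1 (0.054) or Rnf40ΔSC replicate 2 (0.173). Egr4 had 0 reads in all 6 libraries.

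Nab1 and Nab2 encode proteins that bind EGR factors and recruit the chromatin remodeller CHD4. Nab1 had 236.1, 246.8 and 240.1 normalized counts in fl/fl replicates 1, 2 and 3 and 180.3, 164.0 and 159.8 in Rnf40ΔSC replicates. The fl/fl libraries were nearly level and all Rnf40ΔSC libraries lay below them. The log2 fold change was -0.52 (SE 0.11, adjusted p = 0.000253 by edgeR's quasi-likelihood test), and -0.47 without Rnf40ΔSC replicate 3. With total-count scaling it was -0.25 and did not pass (adjusted p 0.0613).

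Nab2 had 155.9, 169.5 and 170.7 normalized counts in fl/fl and 177.0, 216.7 and 175.3 in Rnf40ΔSC libraries. The Rnf40ΔSC libraries were above the fl/fl libraries by a small gap, and the difference did not pass (log2 fold change 0.18, SE 0.12, edgeR adjusted p = 0.251). Without Rnf40ΔSC replicate 3 the value was 0.24 (adjusted p 0.139), without Rnf40ΔSC replicate 2 it was 0.090, while under total-count scaling it was 0.45 and passed (adjusted p 0.00247). Exons of Nab2 share 1050 bases with Gm16229, 151 with Tmem194 and 40 with Stat6, all on the opposite strand, and the strand setting of the counting is not given in the sources used here. Reads in these stretches could belong to Nab2 or to the gene opposite. The difference between the changes of Nab1 and Nab2 was not tested.

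Promoter windows of Nab1 and Pou3f2 are set side by side because both hold the EGR motif, which is in capitals, and their transcripts moved in opposite directions. Of the 9 genes with a window, 3 held it, the other being Id4 with 2 matches and a G and C content of 73.3%. The motif is itself rich in G and C. The share of 5.55% over all windows is not matched for this content, so it is no measure of what to expect here. The Nab1 window (chr1:52500399-52500698, minus strand, GRCm38.p6) had 3 matches and a G and C content of 81.7%. The Pou3f2 window (chr4:22488317-22488616, minus strand, GRCm38.p6) had 1 match and 67.7%.
Nab1: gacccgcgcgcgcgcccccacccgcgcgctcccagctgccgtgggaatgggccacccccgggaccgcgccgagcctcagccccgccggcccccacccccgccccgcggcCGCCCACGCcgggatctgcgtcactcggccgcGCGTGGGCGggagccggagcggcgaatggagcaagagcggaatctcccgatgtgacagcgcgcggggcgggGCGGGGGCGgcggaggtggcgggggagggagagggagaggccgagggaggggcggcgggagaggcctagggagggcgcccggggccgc
Pou3f2: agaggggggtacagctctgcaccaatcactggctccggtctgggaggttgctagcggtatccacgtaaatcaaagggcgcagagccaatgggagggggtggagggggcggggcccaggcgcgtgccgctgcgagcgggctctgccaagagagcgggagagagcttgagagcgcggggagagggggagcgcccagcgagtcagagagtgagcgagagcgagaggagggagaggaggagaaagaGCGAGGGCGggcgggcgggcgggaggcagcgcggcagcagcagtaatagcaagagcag

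Genes of the CHD4 NuRD complex, through which NAB proteins repress, numbered 13, all tested. Of them 4 passed as higher, beside 15.4% of all genes, and 3 as lower, beside 16.2%, with a median log2 fold change of 0.17. Under total-count scaling 7 were higher, beside 33.1%, and 1 was lower, beside 7.74%. Chd4, the helicase subunit, had 588.0, 584.6 and 627.5 normalized counts in fl/fl and 1020, 1036 and 1150.2 in Rnf40ΔSC libraries, all far above. Chd4 had a log2 fold change of 0.83 (SE 0.09, edgeR adjusted p = 2.29e-09). Mta3, another subunit, passed as lower (-0.81, SE 0.16, edgeR adjusted p = 0.000123). It was also called, near the limit of 0.8, but not with total-count scaling (-0.54), with the fold-change prior of DESeq2 (-0.76), with a minimum of 10 counts in every library (-0.799), or without fl/fl replicate 3 (-0.72), Rnf40ΔSC replicate 2 (-0.76) or Rnf40ΔSC replicate 3 (-0.78). Gatad2b passed as higher (0.76, SE 0.24, edgeR adjusted p = 0.0112), except with DESeq2 and without fl/fl replicate 2 or 3 (adjusted p 0.0761 and 0.0804).

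Nfatc3 and Nfatc4, the calcineurin-dependent factors, were low in both genotypes. Nfatc4 had 40.1, 28.6 and 39.3 normalized counts in fl/fl and 22.5, 19.9 and 24.0 in Rnf40ΔSC libraries, from at most 47 reads in a library. The groups did not overlap, although fl/fl replicate 2 came close to Rnf40ΔSC replicate 3. It passed with a log2 fold change of -0.68 (SE 0.25, adjusted p = 0.0367 by edgeR's quasi-likelihood test), and with -0.73 without Rnf40ΔSC replicate 3. It did not pass with DESeq2, with total-count scaling, with no filter on low counts, or without fl/fl replicate 1 (adjusted p 0.107), fl/fl replicate 3 (0.161), Rnf40ΔSC replicate 1 (0.0827) or Rnf40ΔSC replicate 2 (0.0987), in a range from 0.0265 to 0.201. Nfatc3 had 89.5, 125.0 and 114.6 against 81.3, 111.3 and 95.4 normalized counts, ranges that overlap. Its log2 fold change of -0.22 (SE 0.15, edgeR adjusted p = 0.277) was -0.23 without Rnf40ΔSC replicate 3, did not pass and turned to 0.047 with total-count scaling. Over the leave-outs it ranged from -0.33 without fl/fl replicate 1 to -0.11 without Rnf40ΔSC replicate 1. Nfatc3 shares 219 exon bases with Esrp2 on the opposite strand.

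The tested genes of the NFAT family and of calcineurin with its regulators numbered 11. Of these, 2 passed as higher, beside 15.4% of all genes, and 4 as lower, beside 16.2%. Their median log2 fold change was -0.30. With total-count scaling 2 were higher, beside 33.1%, and 1 lower, beside 7.74%. Rcan2, a calcineurin inhibitor, had 91.1, 74.1 and 63.6 normalized counts in fl/fl and 31.4, 37.5 and 41.9 in Rnf40ΔSC libraries, and a log2 fold change of -1.02 (SE 0.20, edgeR adjusted p = 0.000108). Of the 3 catalytic subunits of calcineurin, 1 passed as higher and 2 as lower. Ppp3ca passed as higher (0.49, SE 0.11, edgeR adjusted p = 0.000574). Ppp3cb passed as lower (-0.47, SE 0.13, edgeR adjusted p = 0.00387), but not with total-count scaling (-0.20). Ppp3cc, which the naming rule leaves out and which was added after its values were seen, passed as lower (-0.46, SE 0.18, edgeR adjusted p = 0.0460). It did not pass with total-count scaling, DESeq2, no filter or the replicate block, nor without any library other than Rnf40ΔSC replicate 2 (adjusted p 0.0573 to 0.146 in these leave-outs). Nfat5, a factor of the osmotic response that does not depend on calcineurin, passed as lower (-0.39, SE 0.10, edgeR adjusted p = 0.00193), likewise not with total-count scaling (-0.12).

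Yy1 had 66.4, 77.3 and 94.5 normalized counts in fl/fl and 74.0, 98.4 and 94.6 in Rnf40ΔSC libraries, and the groups overlapped over most of their range. Its log2 fold change of 0.13 (SE 0.16, 95% interval -0.21 to 0.46) did not pass (edgeR adjusted p = 0.595). It was 0.40 with total-count scaling (adjusted p 0.0528) and 0.07 without Rnf40ΔSC replicate 3, in a range from 0.033 without fl/fl replicate 1 to 0.29 without fl/fl replicate 3 over the leave-outs, and passed in none of these. Tested relatives and complex partners of Yy1 numbered 11. Of these, 3 passed as higher by edgeR, beside 15.4% of all genes, and 0 as lower, beside 16.2%. At an unadjusted p under 0.05 by edgeR 4 were higher and 0 lower, beside 20.3% and 20.7%. By DESeq2 1 passed as higher and 0 as lower, beside 10.3% and 11.3%. Their median log2 fold change was 0.45. With total-count scaling 7 were higher, beside 33.1%, and 0 lower, beside 7.74%. That scaling also moved the median of all genes up by 0.27. Sfmbt1, a partner in a Polycomb-type repressor complex, had 21.6, 39.2 and 47.7 against 67.6, 64.4 and 61.3 normalized counts, the fl/fl libraries being widely spread. Sfmbt1 passed with 0.76 (SE 0.21, edgeR adjusted p = 0.00506). L3mbtl2 (0.85) and Ruvbl2 (0.72) also passed, but not with DESeq2. L3mbtl2 was also lost without fl/fl replicate 1 (edgeR adjusted p 0.108) or Rnf40ΔSC replicate 1 (0.0652). Ruvbl2 was lost without any library except fl/fl replicate 2 and Rnf40ΔSC replicate 3 (edgeR adjusted p 0.066 to 0.134).

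Id2, which holds back basic helix-loop-helix proteins and is high in immature Schwann cells, had 111.1, 84.7 and 92.9 normalized counts in fl/fl replicates 1, 2 and 3 and 166.6, 224.9 and 118.7 in Rnf40ΔSC replicates 1, 2 and 3. Rnf40ΔSC libraries were higher and widely spread, and replicate 3 came close to fl/fl replicate 1. The means were 96.2 ± 13.5 and 170.1 ± 53.2 (SD, n = 3 libraries each). The log2 fold change was 0.81 (SE 0.21, adjusted p = 0.0113 by edgeR's quasi-likelihood test). It was 1.03 without Rnf40ΔSC replicate 3. Id2 still passed but fell under the limit of 0.8, and was no longer called, with the fold-change prior of DESeq2 (0.78), with the replicate block (0.78) and without Rnf40ΔSC replicate 2 (0.59). Without fl/fl replicate 2, fl/fl replicate 3 or Rnf40ΔSC replicate 1 it was 0.73, 0.79 and 0.83 and did not pass (adjusted p 0.0774, 0.0713 and 0.0589).

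Id4, a relative with the same kind of action, had 23.2, 29.7 and 18.4 normalized counts in fl/fl and 24.1, 11.7 and 19.4 in Rnf40ΔSC libraries, which overlap. From at most 30 reads in a library, its log2 fold change was -0.31 (SE 0.31, 95% interval -0.94 to 0.32, edgeR adjusted p = 0.484), -0.31 also without Rnf40ΔSC replicate 3, and it did not pass. It was -0.11 without fl/fl replicate 2 or Rnf40ΔSC replicate 2, -0.50 without fl/fl replicate 3, -0.53 without Rnf40ΔSC replicate 1 and -0.043 with total-count scaling, and passed in none of these runs. Id4 shares 171 exon bases with A330033J07Rik on the opposite strand. Of the 5 other ID genes and E proteins, the partners that ID proteins sequester, 0 passed by edgeR or DESeq2. By edgeR 15.4% of all genes passed as higher and 16.2% as lower. At an unadjusted p under 0.05 by edgeR 2 of the 5 were higher, beside 20.3%, and 1 lower, beside 20.7%. At an adjusted p of at most 0.05, 2 of them passed as higher with total-count scaling, beside 33.1% of all genes. They were Tcf3 and Tcf12, the E proteins E2A and HEB. The same 2 did so without Rnf40ΔSC replicate 3, beside 16.7%. Tcf12 also passed as higher with a minimum of 10 counts in every library (adjusted p 0.0459). Id3, with a log2 fold change of -0.53 (edgeR adjusted p = 0.0776), passed as lower without fl/fl replicate 1 (-0.70, adjusted p 0.0276) and without Rnf40ΔSC replicate 2 (-0.72, adjusted p 0.0279). Id1 had 44.8, 46.6 and 56.1 normalized counts in fl/fl and 63.6, 43.3 and 35.7 in Rnf40ΔSC libraries, so that replicates 1 and 3 of Rnf40ΔSC lay on opposite sides of the fl/fl range.

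**Figure D2:**
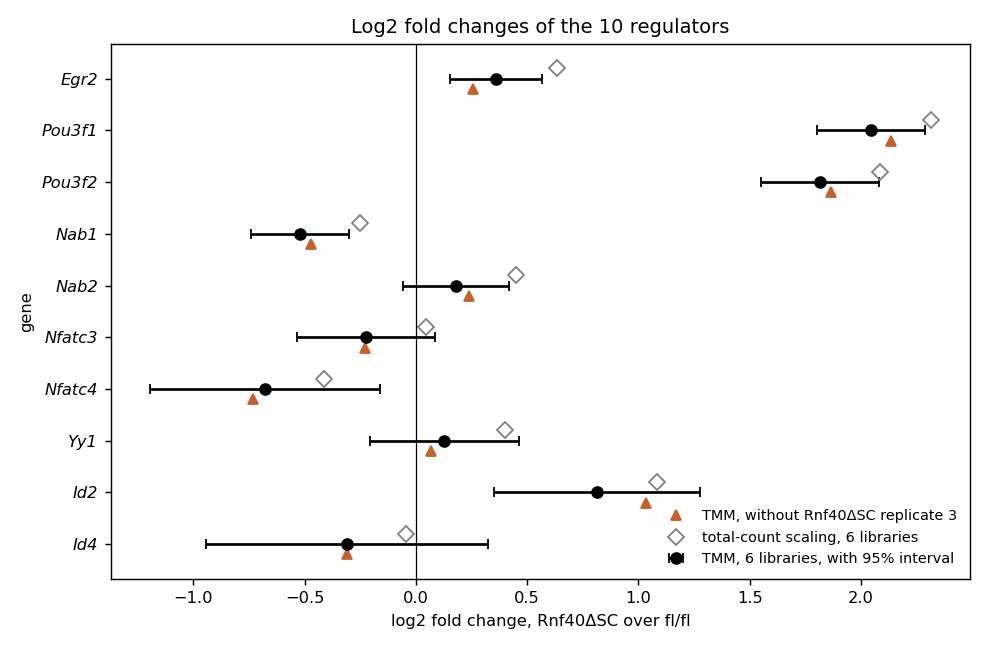
Log2 fold changes (horizontal axis, Rnf40ΔSC over fl/fl) of the 10 regulators. Black points with bars are estimates with 95% intervals from TMM-scaled counts, triangles leave out Rnf40ΔSC replicate 3, and open diamonds use total-count scaling, under which Nfatc3 moves from -0.22 to 0.047.

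Per kilobase of exon, levels of different genes can be set beside each other. Exon lengths are those of GENCODE, whereas the annotation behind the counts is not given in the sources used here. Pou3f1 shares 3003 exon bases with a second model of its symbol, and whether this altered its level was not tested. In fl/fl nerves Egr2 had 136 ± 11.2 and Pou3f1 123 ± 14.3 normalized counts per kilobase (SD, n = 3 libraries each), and their libraries overlapped. Id2 followed with 75.8, Nab1 with 59.0, Nab2 with 56.2 and Pou3f2 with 45.7 per kilobase, of which Nab1 and Nab2 overlapped. In Rnf40ΔSC nerves Pou3f1 came first with 505 ± 94.6 per kilobase, above Egr2 in every library. Egr2 with 174 ± 25.7 and Pou3f2 with 161 ± 15.7 per kilobase overlapped there. The exon length of Pou3f2 rests on 1 transcript (1690 bases) and that of Egr2 on 8 (3398 bases). A different length in the counting would change their standing beside each other. In both genotypes Yy1, Nfatc3, Id4 and Nfatc4 had the lowest means, in this order, from 27.4 to 8.96 per kilobase in fl/fl and from 30.7 to 5.51 in Rnf40ΔSC nerves, but the libraries of Nfatc3 and Id4 overlapped in both.

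Ratios of 2 genes in the same library do not depend on the scaling. The ratio of Pou3f1 to Egr2 counts was 0.876, 0.763 and 0.754 in fl/fl and 2.34, 3.60 and 1.98 in Rnf40ΔSC libraries. Pou3f1 thus had fewer reads than Egr2 in each fl/fl library and more in each Rnf40ΔSC library. The ratio of Egr2 to Sox10, the factor that sets Schwann cell identity and acts upstream of Egr2, was 0.495, 0.489 and 0.404 in fl/fl and 0.945, 0.918 and 1.19 in Rnf40ΔSC libraries. On the log2 scale these ratios differed by 1.68 and 1.13 between the means of the genotypes. The ratio of Nab1 to Egr2 was 0.514, 0.493 and 0.565 against 0.312, 0.321 and 0.234, without overlap. Id4 to Egr2 also separated (log2 difference -0.74). Each of these 4 ratios had p = 0.1 in a two-sided exact permutation test, the smallest that 3 against 3 libraries allow, and 0.175 after adjustment over the 7 ratios, so none could pass. Id2 to Egr2 (0.43), Nab2 to Egr2 (-0.16) and Pou3f1 to Pou3f2 (0.22) overlapped between the genotypes, and without Rnf40ΔSC replicate 3 the difference of Nab2 to Egr2 was 0.0060. The difference of Id2 to Egr2 ranged from 0.10 without Rnf40ΔSC replicate 2 to 0.77 without Rnf40ΔSC replicate 3.

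**Figure D3:**
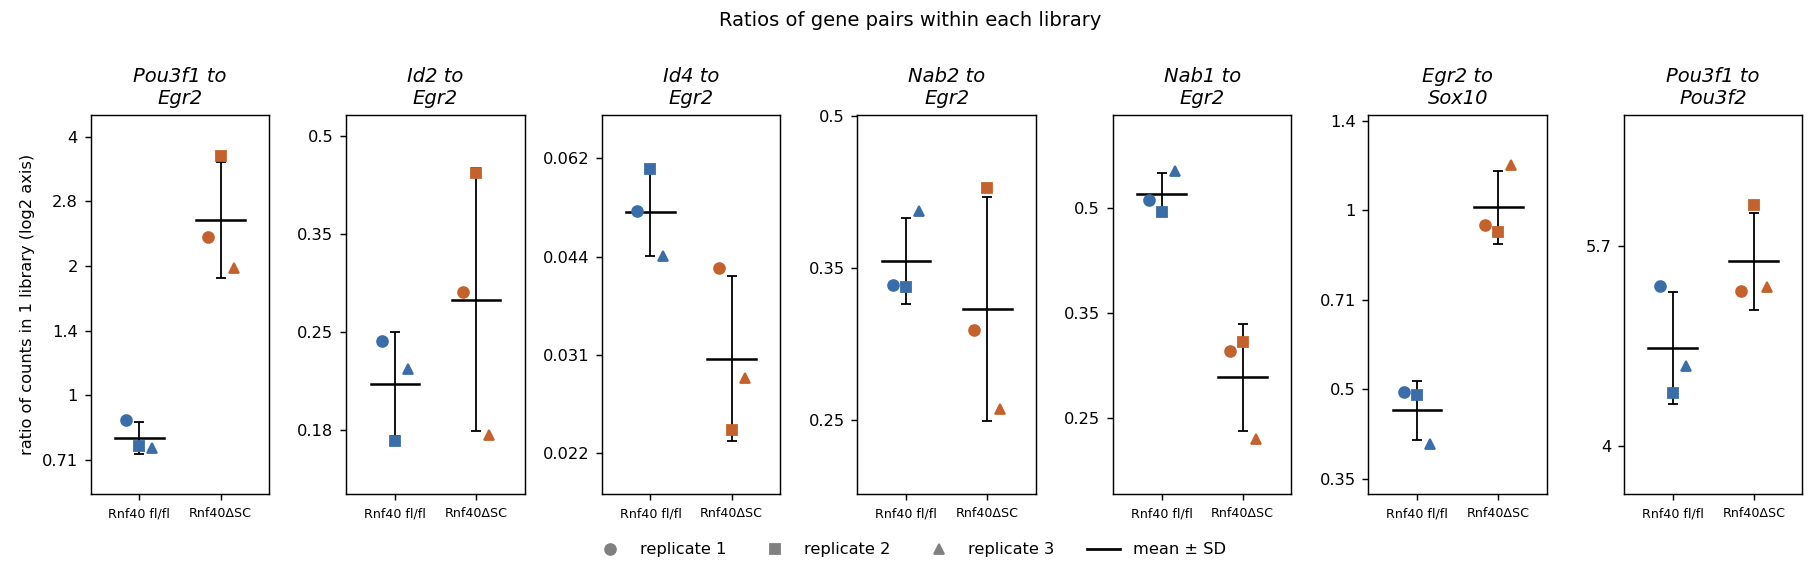
Ratios of counts of gene pairs within each library (vertical log2 axes, a different range in each panel). Points are libraries and black lines are mean ± SD on the log2 scale, from 3 libraries per genotype; Pou3f1 to Egr2 lies below 1 in all fl/fl and above it in all Rnf40ΔSC libraries.

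Of 9 tested genes that feed into Egr2 expression, 5 passed as lower, beside 16.2% of all genes, and 1 as higher, beside 15.4%. Their median log2 fold change was -0.33. With total-count scaling 2 were lower, beside 7.74% of all genes, and 2 higher, beside 33.1%, and the median was -0.062. Sox10 had 930.6, 1025 and 1053 normalized counts in fl/fl and 611.6, 557.6 and 575.5 in Rnf40ΔSC libraries, all well below. Sox10 passed with a log2 fold change of -0.79 (SE 0.09, edgeR adjusted p = 8.80e-09), and -0.77 without Rnf40ΔSC replicate 3. Erbb3, the neuregulin receptor subunit of Schwann cells, passed as lower (-0.60, SE 0.11, edgeR adjusted p = 3.07e-05). Gpr126, a receptor needed for the onset of myelination, passed as lower (-0.42, SE 0.11, edgeR adjusted p = 0.00477), though not with total-count scaling (-0.15). Tead1, the DNA-binding partner of YAP and TAZ, passed as higher (0.37, SE 0.08, edgeR adjusted p = 0.000877).

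Genes activated by Egr2 in myelination fell in the same libraries in which Egr2 was higher. All 12 tested were called as lower, beside 4.99% of all genes, the median of their log2 fold changes being -2.01. The same 12 passed as lower under total-count scaling, beside 7.74% of all genes, and without Rnf40ΔSC replicate 3, beside 17.3%. Fa2h, which makes 2-hydroxy fatty acids for galactolipids, had 1857, 2434 and 2209 normalized counts in fl/fl and 446.6, 419.4 and 418.8 in Rnf40ΔSC libraries. It had the largest fall of the 12 (log2 fold change -2.34, SE 0.09, edgeR adjusted p = 5.58e-21). Drp2, a partner of periaxin, followed with -2.18 (SE 0.08, edgeR adjusted p = 8.96e-22). These genes were listed with earlier results of these data known.

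Tested genes of the immature state or inhibiting myelination numbered 10. Of these, 4 passed as higher, beside 15.4% of all genes, and 2 as lower, beside 16.2%. Their median log2 fold change was -0.05, which turned to 0.21 with total-count scaling. Under that scaling 5 were higher, beside 33.1%, and 2 lower, beside 7.74%. Sox2, which inhibits myelination and Egr2 expression, had 26.2, 14.8 and 22.6 normalized counts in fl/fl and 62.8, 101.9 and 83.0 in Rnf40ΔSC libraries (log2 fold change 1.96, SE 0.25, edgeR adjusted p = 1.53e-08). Ncam1 and L1cam, adhesion molecules of immature and nonmyelinating Schwann cells, went in opposite directions. Ncam1 passed as higher (1.16, SE 0.10, edgeR adjusted p = 3.76e-12). L1cam passed as lower (-1.87, SE 0.14, edgeR adjusted p = 7.64e-14).

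**Figure D4:**
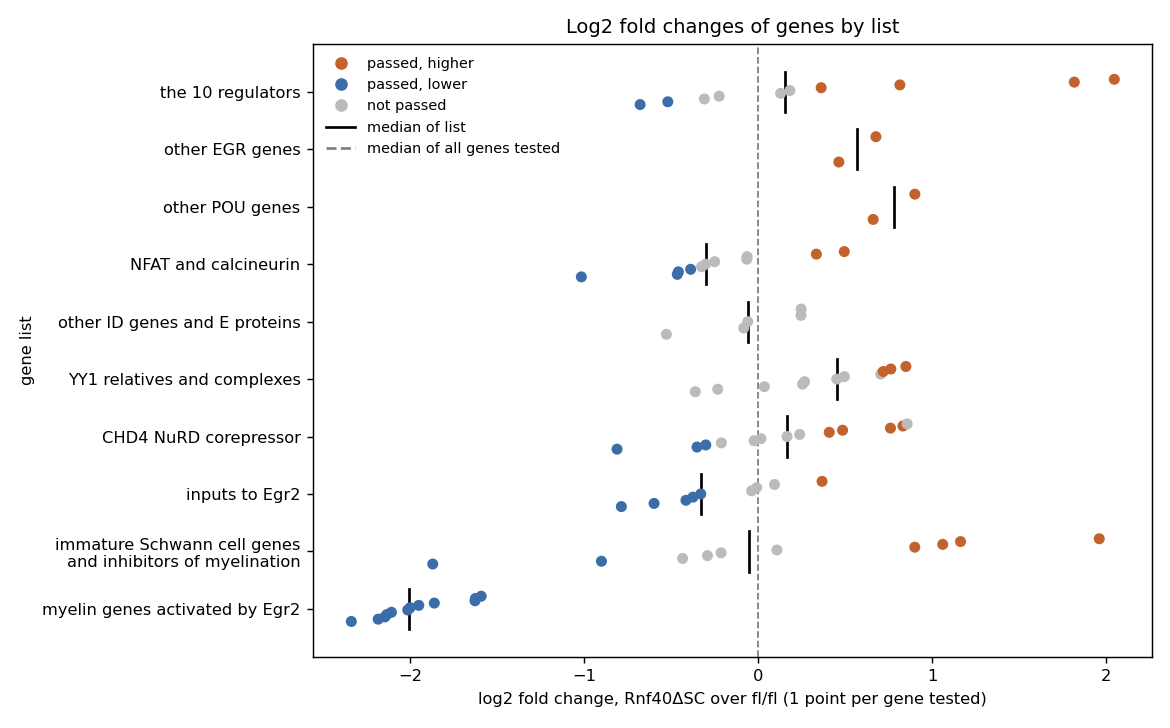
Log2 fold changes (horizontal axis) of the tested genes of each list, 1 point per gene, coloured by whether the gene passed as higher or lower or did not pass. Black bars are list medians and the dashed line is the median of all 11371 genes tested; all 12 myelin genes lie far to the left.

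Likeness over the 6 libraries was measured as Pearson's r of log2 CPM (counts scaled by library size after TMM, prior count 2) among 9251 other genes whose base mean reached 20. As the 6 libraries fall into 2 genotypes, a difference between them raises r, which is given as a description. Closest to Pou3f1 were P4ha3, Mettl16, Ank2, Zcrb1 and Nktr with r from 0.999 down to 0.997, and 931 genes had r above 0.9. Closest to Id2 were Ndufv2, Rbm4b, 2810008D09Rik, Tada1 and Fam133b, from 0.995 down to 0.991. Closest to Egr2 were Ubr7, Sf3b3, Mllt1, Nop9 and Rfc2, from 0.990 down to 0.979, and 117 genes had r above 0.9. Of the 5 closest to Egr2, only Ubr7 passed the edgeR test between the genotypes with TMM scaling. All those named for Pou3f1 passed it, and those for Id2 except Tada1. Of 14 alternative runs, Mettl16 did not pass in 8, Ubr7 in 6, Ndufv2 and Rbm4b in 5 each and Fam133b in 3. DESeq2 was among these runs for Mettl16, Ubr7, Ndufv2 and Rbm4b. Sf3b3, Mllt1, Nop9, Rfc2 and Tada1 passed with total-count scaling.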

How the data were processed

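RNA-Seq of 6 sciatic nerve libraries was analysed, grouped by the labels' genotype. The authors aligned reads to mm9 by the methods, while the labels list mm10 and mm9 (TopHat in the methods; Bowtie2 2.1.0 in the submitters' processing notes), counted unique reads per gene with HTSeq and deposited these raw counts, without normalization. 0 rows named no gene. Annotation and strand setting are not given in the sources used here; labels and methods name different library kits. 1 read stood for 0.405 to 0.759 CPM.

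The test was that of edgeR 4.0.16 in R 4.3.3 (filterByExpr, TMM, robust quasi-likelihood fit, genotype only), with Benjamini-Hochberg adjustment over all genes tested. SE are from the fitted model. Ratios used raw counts plus 0.5 and a two-sided exact permutation test. Code was tested on simulated data. Replicates differed by more than sampling noise (chi-square per degree of freedom 1.78 to 5.21).

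Members and lists were chosen with earlier results of these data known. Normalized counts were scaled to the geometric mean of the effective library sizes. The arithmetic mean was run first, and the geometric mean was taken because it gave the counts of called genes of an earlier analysis of these data (567 lower and 415 higher, against 574 and 424). The choice alters normalized counts and base means by a constant, and no test. The dispersion trend was also estimated without the robust option. The geometric mean was thus adopted, and this alternative added, after the data were seen.

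Named were the 10 genes, Rnf40, Rnf20, Sox10, from each list of more than 6 tested genes the 3 largest changes that passed without overlap and the gene of highest base mean, shorter lists in full, and the 5 genes most alike to Egr2, Pou3f1 and Id2. Of these, 1 gene is not reported here. Ppp3cc was added after its values were seen. Alternatives were RLE and total-count scaling, DESeq2 1.42.0 with and without fold-change prior, no filter, a minimum of 10 counts per library in all 6, a block for the replicate number, a pseudocount of 1, and each library left out. Coordinates and exon lengths are from GENCODE vM1 (mm9, following the methods), promoter windows from RefSeq (GRCm38.p6).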

Additional observations from a re-analysis of the deposited data

How the results depend on the processing

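Recomputed were 811 log2 fold changes of 58 genes (those of the naming rule and Ppp3cc). Of these, 709 kept their direction and side of the threshold, 81 no longer passed, 13 newly passed and 8 changed sign. They include runs with the dispersion trend estimated without the robust option. For the 10 regulators those runs gave the values of the main fit, so they are no check on it. Total-count scaling moved most. Under it 3766 genes passed as higher and 880 as lower, and 1008 were called higher and 261 lower. Of the 10 regulators 0 passed as lower, and the log2 fold changes were -0.25 for Nab1, 0.45 for Nab2, 0.047 for Nfatc3, -0.41 for Nfatc4, 0.40 for Yy1, -0.043 for Id4, 0.21 for Id1 and 0.19 for Tcf4. 1 regulator passed as lower with DESeq2 with or without its prior and with no filter, where Nfatc4 had -0.59, -0.68 and -0.67 and did not pass. The cause was not tested.

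With each library left out in turn, 2 to 4 of the 10 passed as higher and 1 to 2 as lower, beside 1293 to 1915 and 1439 to 1992 of all genes. Over these fits the log2 fold change ranged from 0.25 to 0.46 for Egr2, from -0.83 to -0.59 for Nfatc4, from 0.59 to 1.03 for Id2, from -0.53 to -0.11 for Id4, from 0.033 to 0.29 for Yy1, from -0.33 to -0.11 for Nfatc3, from 0.090 to 0.24 for Nab2, from -0.72 to -0.40 for Id3, from -0.34 to 0.14 for Id1 and from -0.084 to 0.24 for Ino80, and the log2 difference of Nab2 to Egr2 from -0.36 to 0.0060 and of Id2 to Egr2 from 0.10 to 0.77. Without fl/fl replicate 3, 2 passed as higher, and Egr2 and Id2 did not. Id1 was 0.059 without fl/fl replicate 3 and 0.14 without Rnf40ΔSC replicate 3. Ino80 was -0.034 without fl/fl replicate 3, -0.084 without Rnf40ΔSC replicate 1 and -0.035 without Rnf40ΔSC replicate 2. Fits on 5 libraries have fewer samples. Those without Rnf40ΔSC replicate 3 also leave muscle RNA fully apart between the genotypes.

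Some calls near the fold-change limit of 0.8 were lost although the gene passed. Id2 was not called with the DESeq2 prior (0.78), the replicate block (0.78) or without Rnf40ΔSC replicate 2 (0.59), nor where it did not pass. Mta3 was not called with total-count scaling (-0.54), the DESeq2 prior (-0.76), a minimum of 10 counts in every library (-0.799), or without fl/fl replicate 3 (-0.72), Rnf40ΔSC replicate 2 (-0.76) or Rnf40ΔSC replicate 3 (-0.78). Rcan2 (-0.75 with total-count scaling) and Chd4 (0.78 without Rnf40ΔSC replicate 3) were each lost once. Nfatc4 was called as lower without fl/fl replicate 2. All 12 myelin genes were called in every run.

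With the replicate number as a block, 1727 genes passed as higher and 1837 as lower, against 1756 and 1841, and 4 regulators were higher and 2 lower, as without it. Same-numbered libraries deviated with correlations of -0.095, -0.015 and -0.062 from their group means, so the numbers share only a label, and no library correlated best with its own number. Rnf20, the partner of Rnf40 in the E3 ligase, passed (0.44), but not without fl/fl replicate 3 (0.37) or Rnf40ΔSC replicate 1 (0.40). The arithmetic mean library size, run first, gave 424 called higher and 574 lower, against 415 and 567 with the geometric mean, which was adopted after the data were seen. Estimation of the dispersion trend without the robust option, added after the data were seen, gave 415 and 567. Id4, Nfatc4 and L3mbtl2 had few reads, and the part of depth was not tested.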
